A study of Mus musculus with 8 samples.

Results

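Transcripts of 9 genes of the voltage-gated sodium channel complex were followed in dorsal root ganglia, which house the cell bodies of the sensory neurons of the trunk and limbs: the pore-forming alpha subunits Scn1a, Scn8a, Scn9a, Scn10a and Scn11a, the beta subunits Scn2b, Scn3b and Scn4b, and Tmem233, a small membrane protein that associates with sodium channels. They were matched by gene symbol among 40800 gene identifiers, and all 9 passed the filter on low values that left 15030 genes for testing. The groups were 4 wild-type mice (C57BL/6; samples 1, 3, 4 and 8) and 4 homozygotes of a Tmem184b gene trap with a C57BL/6 background (samples 1, 2, 3 and 4), every animal 6 months old. A gene trap is a cassette inserted into a gene that diverts its splicing and truncates its messenger RNA; it is present in all cells, so it marks no single cell type. The labels give no sex, litter or dissection batch. The deposited column names carry running numbers of unstated meaning, consecutive in the mutants and not in the wild types, and a batch in them cannot be told apart from genotype. The 9 genes were selected on gene family and on their mutant against wild-type log2 CPM, so those differences are given as a description, with a standard error and without a p-value. Values after ± are SDs over the 4 samples of a genotype. The samples are bulk tissue, in which fewer cells of a type and less RNA per cell cannot be told apart.

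Voltage-gated sodium channels open on depolarisation and carry the inward current of the action potential. An alpha subunit forms the pore, and beta subunits, which have a single membrane-spanning segment, adjust gating and surface expression. In sensory ganglia, Scn10a and Scn11a encode channels resistant to tetrodotoxin that are typical of small pain-sensing neurons, Scn9a encodes a tetrodotoxin-sensitive channel that amplifies small depolarisations, and Scn1a and Scn8a encode fast tetrodotoxin-sensitive channels prominent in large myelinated neurons.

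Libraries held 6177680 to 7975562 reads, recovered from the deposited log2 CPM (log2 of read counts scaled to library size, with a small prior count). The trapped gene itself, Tmem184b, averaged 171 ± 8.45 CPM in wild types and 6.66 ± 1.30 CPM in mutants, without overlap, as the labels have it. Markers of sensory neurons at large were abundant in every sample: the 8 genes of the pan-neuronal list summed to 9176 to 10208 CPM among wild types and 9213 to 9893 CPM among mutants. Across all tested genes, limma with Benjamini-Hochberg adjustment placed 423 genes higher and 397 lower in the mutant at an adjusted p under 0.05. The share of higher genes among those calls was 51.6% as deposited, 39.1% after quantile normalization, 31.9% with voom, 29.8% with the trend in GC content removed and 22.4% after median centring. Without the mean-variance trend 67 genes were higher and 75 lower. Litters and extractions are not given in the labels, and p-values measure the spread between these samples, which may be technical in part.

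Levels were first compared between genes, as CPM per kilobase of the longest coding transcript, which allows for transcript length. In wild type Scn10a stood highest, at 288 ± 13.6 CPM per kilobase. Tmem233 followed at 199 ± 14.5, then Scn11a at 163 ± 7.37 and Scn4b at 131 ± 10.7. The ranges of the 4 wild-type samples did not overlap between any neighbours among these 4 genes. Scn9a was at 83.2 ± 4.61 and Scn8a at 47.8 ± 3.25 CPM per kilobase, again apart from their neighbours. Scn1a, at 29.9 ± 3.11, Scn3b, at 28.9 ± 4.02, and Scn2b, at 22.5 ± 3.17, overlapped from each to the next and had no clear order. In the mutant Scn10a remained the highest of the 9, at 211 ± 31.8, but the order below it differed. Scn4b was then at 178 ± 22.3, Tmem233 at 123 ± 10.1 and Scn11a at 101 ± 19.0 CPM per kilobase. The mutant ranges overlapped between Scn10a and Scn4b, between Tmem233 and Scn11a, and between Scn11a and Scn9a. With merged exons as the length, Scn4b stood above Scn10a in the mutant, at 178 against 177 CPM per kilobase.

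**Figure D1:**
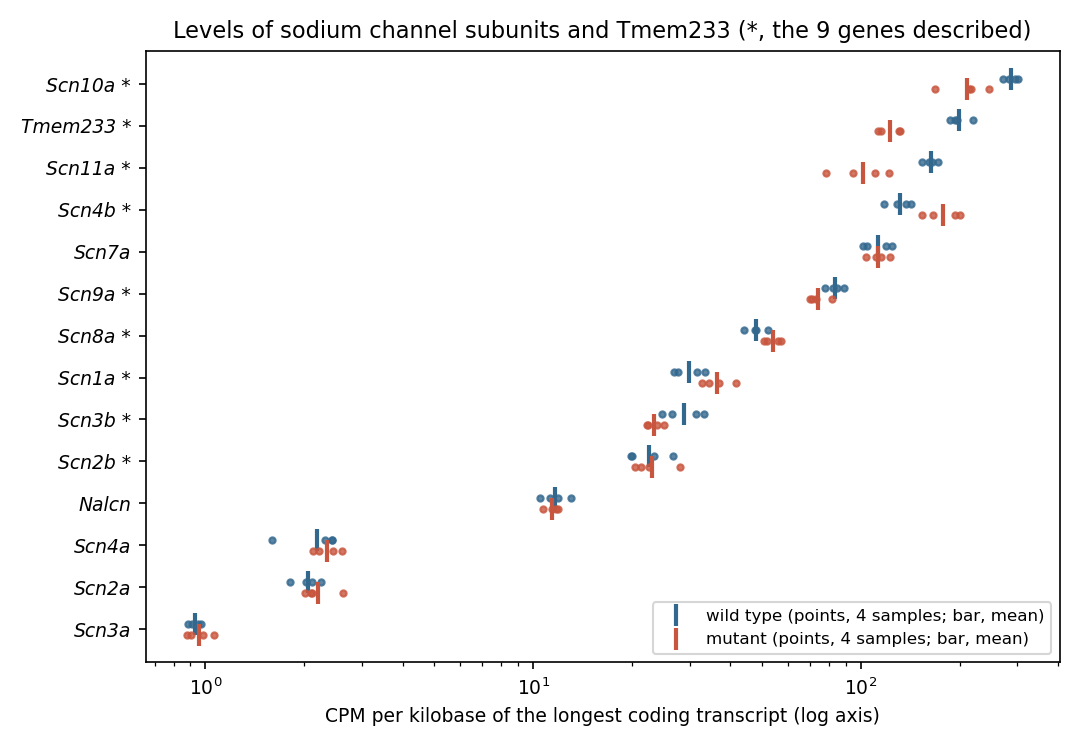
CPM per kilobase of the longest coding transcript (x axis, log scale) for 14 genes (y axis), with 4 wild-type samples in blue and 4 mutant samples in red as points and a bar at each mean. Scn10a is highest in wild type at 288 CPM per kilobase, the red points of Scn11a and Tmem233 lie to the left of the blue ones, and those of Scn4b to the right.

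The 9 genes differ in how far their sequence and place in the genome set them apart from relatives. In the GENCODE annotation Scn1a and Scn9a are neighbours on chromosome 2 with no coding gene between them, as are Scn10a and Scn11a on chromosome 9, where Scn2b and Scn4b are also adjacent. Among the transcripts of all genes, 7.29% of the distinct 31-base words of Scn1a and 6.01% of those of Scn9a also occur in another gene, mainly Scn2a, Scn3a and each other. The share was 3.03% for Scn10a, 2.20% for Scn2b, 0.490% for Scn8a, 0.269% for Scn3b and 0.102% for Scn11a, and no word of Scn4b or Tmem233 was shared. Reads from shared words could be split between relatives by the authors' counting, though the stated read length, 150 bases, is longer than these words. On this measure Scn1a and Scn9a are the least distinct of the 9, and its effect on their counts was not tested. An antisense gene, Gm13629, shares exon bases with Scn9a, and strand use in counting is not given in the sources used here.

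Promoters are shown for the 4 genes whose mutant and wild-type samples did not overlap, 3 of them lower in the mutant (Scn10a, Scn11a and Tmem233) and Scn4b higher. Each is the RefSeq window from 250 bases before the start site to 50 after it in GRCm38.p6, 5′ to 3′ on the gene's strand: chr9:119718983-119719282 (minus strand) for Scn10a, chr9:119825407-119825706 (minus) for Scn11a, chr5:116083218-116083517 (minus) for Tmem233 and chr9:45138374-45138673 (plus) for Scn4b. For Scn10a and Scn11a the start is also that of a GENCODE transcript, whose first exon is 35 and 32 bases long, so the end of the window reaches into the first intron. The Tmem233 start lies 23 bases upstream of the GENCODE start, and the Scn4b start 229 bases downstream of it. Capitals mark CG dinucleotides, the sites of DNA methylation in mammals.
Scn10a: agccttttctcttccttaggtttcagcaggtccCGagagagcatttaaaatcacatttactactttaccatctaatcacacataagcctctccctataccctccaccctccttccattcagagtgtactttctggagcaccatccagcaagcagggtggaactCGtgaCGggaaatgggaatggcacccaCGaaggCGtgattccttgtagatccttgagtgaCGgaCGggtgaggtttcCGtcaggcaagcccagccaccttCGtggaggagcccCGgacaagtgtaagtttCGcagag
Scn11a: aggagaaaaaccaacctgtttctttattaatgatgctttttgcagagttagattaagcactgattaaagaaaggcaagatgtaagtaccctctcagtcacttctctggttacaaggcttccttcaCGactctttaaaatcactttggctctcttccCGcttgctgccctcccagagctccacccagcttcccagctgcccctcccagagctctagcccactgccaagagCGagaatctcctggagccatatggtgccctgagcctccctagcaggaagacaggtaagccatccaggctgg
Tmem233: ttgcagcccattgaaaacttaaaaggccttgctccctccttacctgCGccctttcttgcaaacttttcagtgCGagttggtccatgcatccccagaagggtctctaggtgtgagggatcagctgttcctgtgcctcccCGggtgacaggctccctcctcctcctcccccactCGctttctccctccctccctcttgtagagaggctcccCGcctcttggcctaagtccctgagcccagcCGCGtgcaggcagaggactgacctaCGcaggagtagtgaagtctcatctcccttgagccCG
Scn4b: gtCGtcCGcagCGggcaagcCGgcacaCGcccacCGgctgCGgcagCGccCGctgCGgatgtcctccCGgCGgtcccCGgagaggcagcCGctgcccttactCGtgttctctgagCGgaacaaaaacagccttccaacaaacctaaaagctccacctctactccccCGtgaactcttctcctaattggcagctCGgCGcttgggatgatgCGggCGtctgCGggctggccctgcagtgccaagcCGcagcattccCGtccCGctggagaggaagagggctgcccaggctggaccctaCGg
Scn4b has 26 CG dinucleotides and 66.3% G and C, against a median of 7 and 52.7% over the 32851 windows of the table. Scn10a has 11, Tmem233 9 and Scn11a 3. None of the 4 windows holds, on either strand, the core word of RUNX factors TGTGGT, the homeodomain core TAATTA, the TATA box TATAAA or the GC box GGGCGG. Those words occur in 16.8%, 5.29%, 13.6% and 35.7% of all windows in that order, so their absence from 4 windows is a description of these letters only.

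Scn10a and Scn11a, the tetrodotoxin-resistant pair, were lower in every mutant sample than in any wild type. Scn10a (ENSMUSG00000034533) read 10.98, 10.82, 10.89 and 10.95 in log2 CPM for wild types 1, 3, 4 and 8, against 10.50, 10.48, 10.68 and 10.14 for mutants 1 to 4. Mutant 3 came nearest to the wild types, 0.14 below the lowest of them, and mutant 4 was the lowest. The mutant mean was 73.3% of wild type in CPM, from 1927 ± 90.8 to 1412 ± 213 CPM, a log2 difference of -0.46 (SE 0.090). Scn11a (ENSMUSG00000034115) read 9.98, 9.90, 9.93 and 9.83 in log2 CPM for wild types 1, 3, 4 and 8, against 9.13, 9.35, 9.49 and 8.85 for mutants 1 to 4. Mutant 4 was again lowest and mutant 3 highest of the mutants, with a gap of 0.34 between mutant 3 and the lowest wild type. Its mean went from 963 ± 43.5 to 598 ± 112 CPM, 62.1% of wild type, a log2 difference of -0.71 (SE 0.102). Without mutant 4 the differences were -0.36 for Scn10a and -0.59 for Scn11a. Read within a sample, the ratio of Scn11a to Scn10a CPM was 0.50 ± 0.029 for wild types and 0.422 ± 0.031 for mutants.

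**Figure D2:**
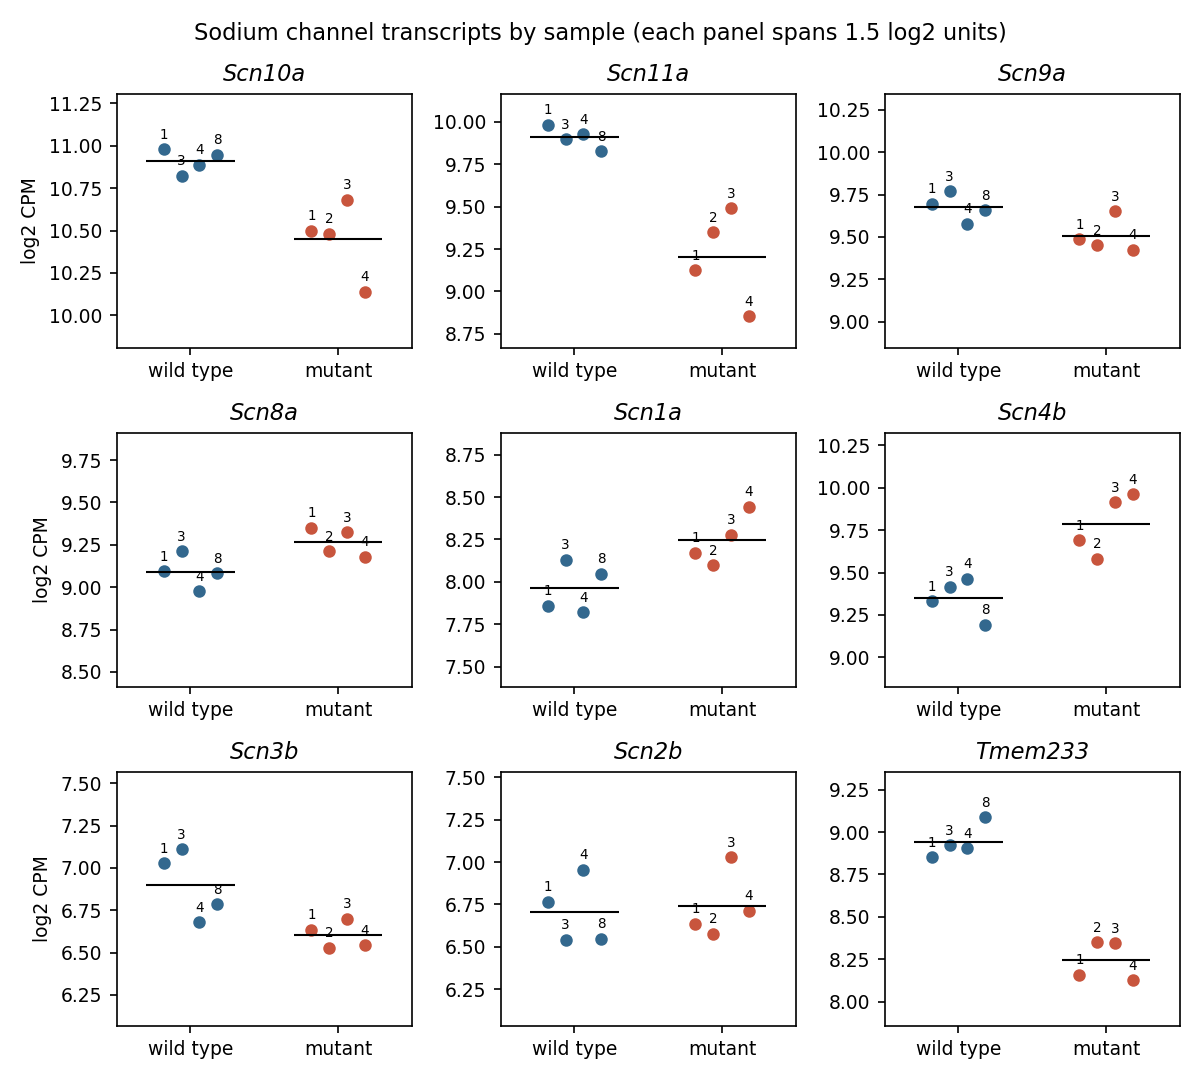
Log2 CPM (y axis) of each of the 9 transcripts in 4 wild-type (blue) and 4 mutant (red) samples, numbered as in their labels, with a line at each group mean and the same 1.5-unit span in every panel. Groups are apart for Scn10a, Scn11a and Tmem233, lower in the mutant, and for Scn4b, higher in the mutant.

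Tmem233, a dispanin-family protein that is best known as a partner of the Scn9a channel in the action of a plant toxin on sensory neurons, was separated most widely. Tmem233 (ENSMUSG00000079278) read 8.85, 8.92, 8.90 and 9.09 in log2 CPM for wild types 1, 3, 4 and 8, against 8.16, 8.35, 8.34 and 8.13 for mutants 1 to 4. The gap between the highest mutant and the lowest wild type was 0.50, and wild type 8 was the highest of all. Its mean went from 493 ± 35.9 to 304 ± 25.0 CPM, 61.7% of wild type, a log2 difference of -0.70 (SE 0.068).

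Scn9a itself, whose loss in people abolishes pain, lay lower on average with overlapping groups. Scn9a (ENSMUSG00000075316) read 9.70, 9.77, 9.58 and 9.66 in log2 CPM for wild types 1, 3, 4 and 8, against 9.49, 9.45, 9.65 and 9.42 for mutants 1 to 4. Mutant 3 lay within the wild-type range and the other mutants below it. The log2 difference was -0.17 (SE 0.062), or 819 ± 45.4 against 727 ± 52.8 CPM.

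Scn8a and Scn1a, fast channels prominent in large myelinated neurons, lay higher on average in the mutant, each with overlapping groups. Scn8a (ENSMUSG00000023033) read 9.09, 9.21, 8.97 and 9.08 in log2 CPM for wild types 1, 3, 4 and 8, against 9.35, 9.21, 9.32 and 9.18 for mutants 1 to 4, a log2 difference of 0.18 (SE 0.061). Wild type 3 lay between the mutants, above mutant 2 by a small margin and above mutant 4. Scn1a (ENSMUSG00000064329) read 7.86, 8.13, 7.82 and 8.05 log2 CPM for the wild types in that order, against 8.17, 8.10, 8.28 and 8.44 for the mutants, a log2 difference of 0.28 (SE 0.082). Only wild type 3 and mutant 2 overlapped. The Scn8a difference was 0.08 after median centring, and the Scn1a difference 0.19.

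The beta subunits went different ways. Scn4b (ENSMUSG00000046480), whose intracellular tail can block the open pore and support resurgent current, read 9.33, 9.42, 9.46 and 9.19 in log2 CPM for wild types 1, 3, 4 and 8, against 9.69, 9.58, 9.92 and 9.96 for mutants 1 to 4. Every mutant lay above every wild type, by at least 0.12. Its mean went from 655 ± 53.3 to 889 ± 111 CPM, 136% of wild type, a log2 difference of 0.44 (SE 0.083). Scn3b (ENSMUSG00000049281), which associates with alpha subunits without a covalent bond, read 7.03, 7.11, 6.68 and 6.79 log2 CPM for the wild types in that order, against 6.63, 6.53, 6.70 and 6.55 for the mutants. The wild types varied more than the mutants, with mutant 3 above wild type 4, and the log2 difference was -0.30 (SE 0.086). Scn2b (ENSMUSG00000070304), which is joined to the alpha subunit by a disulphide bond, read 6.77, 6.54, 6.96 and 6.55 log2 CPM for the wild types in that order, against 6.64, 6.58, 7.03 and 6.71 for the mutants. Its groups lay over each other, with a log2 difference of 0.04 (SE 0.104) that took either sign among the scalings, from -0.06 to 0.04.

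Counted together, 3 of the 9 were lower and 1 was higher at a limma adjusted p under 0.05 (Benjamini-Hochberg over all tested genes), where 2.64% of all tested genes were lower, 2.81% higher and 5.46% either. Groups did not overlap for the same 4 of 9, against 12.4% of all tested genes (4.92% lower in the mutant and 7.5% higher). The choice of the 9 used this contrast, so these counts are not read against those shares. The median log2 difference was -0.17 over the 9 genes and 0.07 over all tested genes. Without the mean-variance trend the count was 1 of the 9, Tmem233.

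The make-up of the sodium channel transcript pool also differed between genotypes. Scn10a and Scn11a together made up 74.8%, 71.3%, 75.1% and 73.6% of the summed CPM per kilobase of the 5 alpha subunits in wild types 1, 3, 4 and 8, and 65.4%, 67.6%, 67.8% and 60.4% in mutants 1 to 4. Every mutant lay below every wild type, with mutant 4 lowest. Scn1a and Scn8a together made up 12.7 ± 1.03% in wild type and 19.1 ± 2.44% in the mutant, and Scn9a 13.6 ± 0.705% and 15.6 ± 1.02%. Scn9a thus took a larger share in the mutant while its own level was not higher. The summed level of the 5 alpha subunits was 612 ± 15.3 CPM per kilobase in wild type and 477 ± 54.5 in the mutant. That of the 3 beta subunits was 183 ± 13.2 and 225 ± 25.2, of which Scn4b made up 71.8 ± 1.31% and 79.3 ± 1.61%. These sums and shares repeat the contrast that chose the genes and carry no test.

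**Figure D3:**
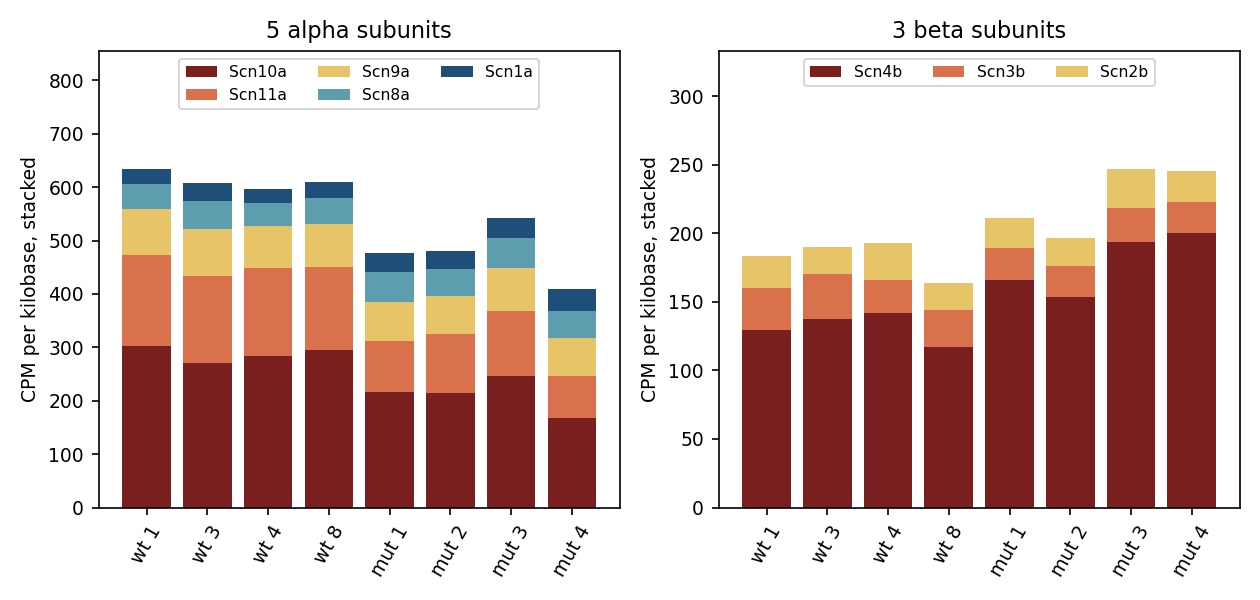
CPM per kilobase of the longest coding transcript, stacked over the 5 alpha subunits (left) and the 3 beta subunits (right) in each of 8 samples. The alpha stacks are lower in the 4 mutants, mainly through Scn10a and Scn11a, and the beta stacks higher, through Scn4b.

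Other sodium channel subunits were looked at in the same fit. None of the 5 compared (Scn2a, Scn3a, Scn4a, Scn7a and the leak channel Nalcn) passed the limma adjusted p under 0.05 in either direction, and voom called none as well. With an unadjusted p under 0.05 there were 0. Scn7a, a sodium-sensing relative found in glia and some neurons, was the most abundant alpha-type member of this group, at 826 ± 82.8 CPM in wild type and 830 ± 59.4 in the mutant (log2 difference 0.01, SE 0.073, limma adjusted p = 0.958). Nalcn, which carries a resting sodium leak, differed by -0.03 (limma adjusted p = 0.879). Scn2a and Scn3a, mainly central and embryonic channels, were low, at 2.05 ± 0.188 and 0.929 ± 0.038 CPM per kilobase in wild type, and differed by 0.10 (limma adjusted p = 0.647) and 0.04 (limma adjusted p = 0.888). Scn4a, the skeletal muscle channel, differed by 0.11 (limma adjusted p = 0.689). The skeletal muscle markers summed to 4.13 to 36.4 CPM among wild types and 12.1 to 168 CPM among mutants, highest in mutant 4, where Scn4a was the lowest of the mutants at 3.84 log2 CPM. The median log2 difference of the 5 subunits was 0.04.

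**Figure D4:**
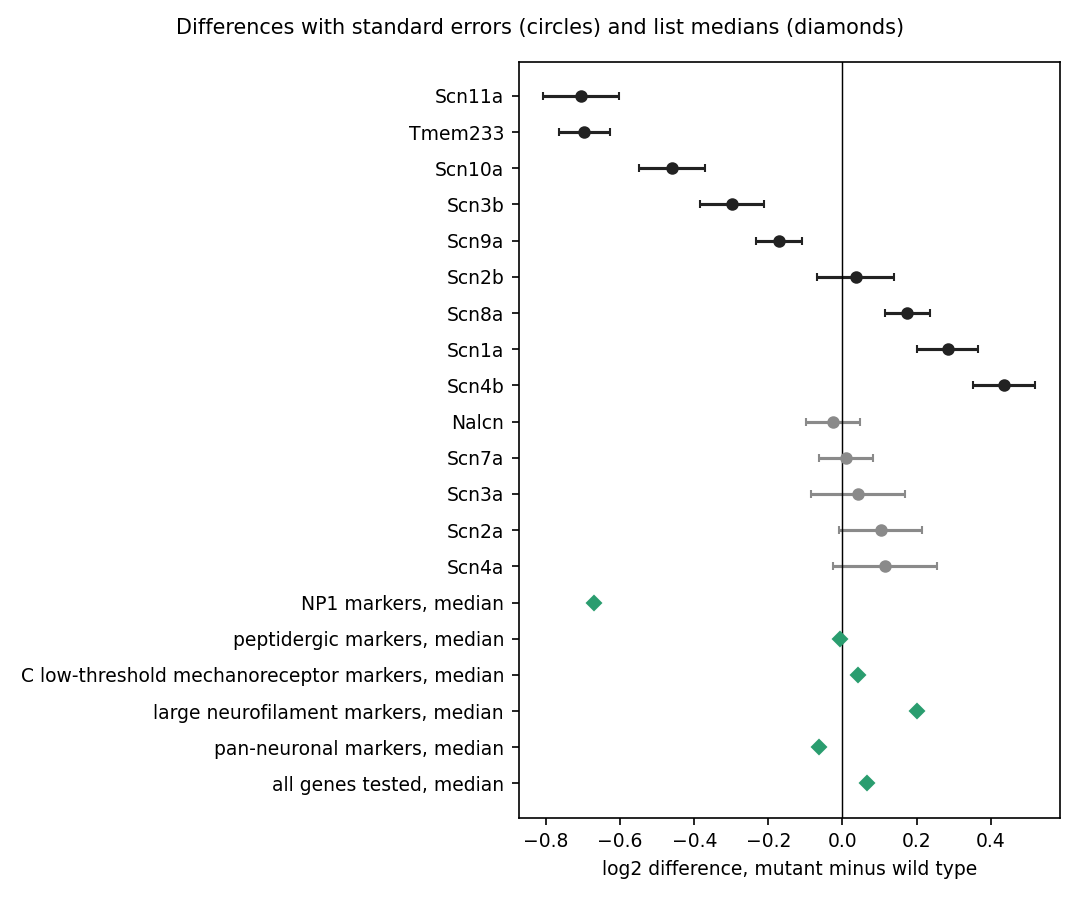
Log2 difference, mutant minus wild type (x axis), with its standard error for the 9 genes described (black circles) and 5 other subunits (grey circles), and the median difference of 5 marker lists and of all tested genes (green diamonds). Scn11a, at -0.71, and Tmem233, at -0.70, lie near the NP1 median of -0.67, while the grey circles lie between -0.03 and 0.11.

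Proteins that anchor, traffic or gate sodium channels were compared next. Of 24 genes, 1 rose, 2 fell and 21 did not pass, where 2.81% of all tested genes were higher and 2.64% lower, with a median log2 difference of 0.02. Fgf13, an intracellular factor that binds the tails of sodium channels in nociceptors, fell by 0.31 in log2 CPM (SE 0.056; limma adjusted p = 0.00584), with every mutant below every wild type. Nedd4l, a ubiquitin ligase that removes sodium channels from the membrane, fell by 0.34 (SE 0.077; limma adjusted p = 0.020), also with groups apart. Without wild type 1 its adjusted p was 0.0696 and without wild type 3 it was 0.0568. Cntn1, a cell adhesion protein of axons that associates with sodium channels, rose by 0.23 (SE 0.061; limma adjusted p = 0.0389). That call depended on the setting: Cntn1 passed in 8 of 20 alternatives, and its adjusted p was 0.341 after median centring. Its adjusted p was also above the threshold when wild type 1 (0.124), wild type 4 (0.0858), wild type 8 (0.0732), mutant 1 (0.0988) or mutant 4 (0.0862) was left out. Ank3, the ankyrin that clusters sodium channels at the axon initial segment, differed by -0.27 and did not pass (limma adjusted p = 0.0870).

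Of 8 kinases known to modify sodium channels, 3 fell and 5 did not pass, beside 2.64% of all tested genes lower, with a median log2 difference of -0.09. Prkca, a calcium-dependent protein kinase C, went from 674 ± 21.3 to 449 ± 56.8 CPM, a log2 difference of -0.59 (SE 0.076; limma adjusted p = 0.000661). The nearest mutant lay 0.34 below the lowest wild type, mutant 4 was lowest at 8.59 log2 CPM, and it passed in all 20 alternatives. Prkce, the protein kinase C isoform of nociceptor sensitisation, fell by 0.30 (SE 0.065; limma adjusted p = 0.0149), and Mapk3, a growth factor-activated kinase, fell by 0.20 (SE 0.050; limma adjusted p = 0.0287). Without wild type 1 the adjusted p was 0.0589 for Prkce and 0.0950 for Mapk3, and Mapk3, which passed in 10 of 20 alternatives, was also lost with no filter (0.0589), with quantile normalization (0.0857), and without wild type 3 (0.0616), wild type 4 (0.0515), mutant 1 (0.0744) or mutant 4 (0.0587).

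Among 7 dispanin relatives of Tmem233, 1 fell and 6 did not pass, a share to be set against 2.64% lower in all, with a median log2 difference of 0.08. Trarg1, listed in the data under its older symbol Tusc5 and known for glucose transporter trafficking in fat, went from 1096 ± 108 to 888 ± 29.8 CPM. Its log2 difference was -0.30 (SE 0.066; limma adjusted p = 0.0168), with groups apart, and without mutant 1 the adjusted p was 0.0539. Prrt2, the relative that acts on neuronal sodium channels in movement disorder, differed by 0.42 and did not pass (SE 0.187; limma adjusted p = 0.212).

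Of 6 transcription factors of nociceptor identity, 2 fell and 4 did not pass, against the same 2.64% of all tested genes, with a median log2 difference of -0.14. Runx1, which directs the nonpeptidergic fate, went from 166 ± 3.41 to 125 ± 14.5 CPM, a log2 difference of -0.41 (SE 0.074; limma adjusted p = 0.00567). Its lowest sample was mutant 4, at 6.73 log2 CPM, as for Scn10a and Scn11a. Prdm12, a regulator needed for nociceptor development, fell by 0.35 (SE 0.073; limma adjusted p = 0.0128), with an adjusted p of 0.0505 without wild type 1.

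Markers of some of the neurons that make these channels moved with some of the 9. NP1 neurons are the nonpeptidergic nociceptors marked by Mrgprd, which express Scn10a and Scn11a strongly. All 7 NP1 markers fell (limma adjusted p under 0.05). Of all tested genes 2.64% were lower and 2.81% higher, shares that stand beside each count of called markers here. The NP1 markers summed to 1420 to 1540 CPM among wild types and 787 to 1136 CPM among mutants. Their sum was lowest in mutant 4 and, among mutants, highest in mutant 3. Of the 8 pan-neuronal markers 1 was called lower (Avil). After each genotype's mean was subtracted, Scn11a and the mean log2 CPM of the NP1 markers correlated over the 8 samples at r = 0.97 (Spearman 0.95). Without the 2 samples whose marker mean lay farthest from its median, r was 0.93, and the farthest samples of each list were chosen in this way. For Scn10a r was 0.75 and for Tmem233 0.59, and these were -0.22 and 0.27 without the 2 farthest samples, mutants 3 and 4. Over the 4 mutants alone r was 0.83 for Scn10a and 0.98 for Tmem233, while among wild types sample 8 had the highest Tmem233 and the lowest NP1 value. These values share libraries and depth, and are a description of 8 samples. The correlations given here are a selection from those of several of the 9 genes with every marker list. NP2 and NP3, the itch-sensing nonpeptidergic classes, were lower too: both tested NP2 markers fell, with sums of 35.6 to 64.7 CPM among wild types and 18.6 to 29.6 CPM among mutants, and all 6 NP3 markers fell, from 121 to 165 CPM down to 30.7 to 37.9 CPM, with a median log2 difference of -2.80. Within genotypes the NP2 markers correlated with Tmem233 at r = 0.80, or 0.45 without the 2 farthest samples. Peptidergic markers summed to 1290 to 1350 CPM among wild types and 1195 to 1373 CPM among mutants, with 1 of 6 lower. Within genotypes Scn10a correlated with them at r = -0.71, but at 0.39 without the 2 farthest samples. Markers of C low-threshold mechanoreceptors summed to 222 to 288 CPM among wild types and 260 to 291 CPM among mutants, with 0 of 4 called. Markers of large neurofilament neurons summed to 6082 to 7045 CPM and 6776 to 7698 CPM, with 1 of 7 called higher (Calb1). Their median log2 difference was 0.20, beside 0.44 for Scn4b, 0.28 for Scn1a and 0.18 for Scn8a. Within genotypes r with these markers was 0.12 for Scn4b, 0.65 for Scn1a and -0.03 for Scn8a. Without the 2 farthest samples r was 0.48, 0.60 and -0.004 in that order. For Scn8a r was 0.72 with the C low-threshold mechanoreceptor markers and -0.81 with the peptidergic markers. Without the 2 farthest samples these were 0.89 and -0.95. Satellite glia markers summed to 1793 to 2193 CPM and 1976 to 2780 CPM, highest in mutant 4, with 1 of 5 higher, and Schwann cell markers to 2421 to 3165 CPM and 2859 to 3441 CPM, with 2 of 6 higher. Within genotypes Scn11a correlated with the satellite glia markers at r = -0.79 and the large neurofilament markers at -0.77, and these were -0.73 and -0.92 without the 2 farthest samples. Scn10a correlated with the skeletal muscle markers at -0.75, but at -0.13 without the 2 farthest samples. Mutant 4 held the lowest Scn10a, Scn11a, Tmem233 and NP1 values and the highest Scn4b, Scn1a, satellite glia, immune, fibroblast and skeletal muscle values. Immune markers summed to 27.3 to 40.6 CPM among wild types and 34.7 to 59.1 CPM among mutants (1 of 4 tested higher, Cd163; median log2 difference 0.46), and fibroblast markers to 525 to 964 CPM and 706 to 1013 CPM (1 of 5 higher, Dcn; median 0.34). Scn11a correlated with the immune and fibroblast markers at r = -0.65 and -0.38 within genotypes over 8 samples. Without the 2 farthest samples these were -0.67 and -0.76, and over the 4 mutants alone -0.99 and -0.94. No marker in these lists was at 0 in all samples. The part of these cell types in the differences of the sodium channel genes was not tested.

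**Figure D5:**
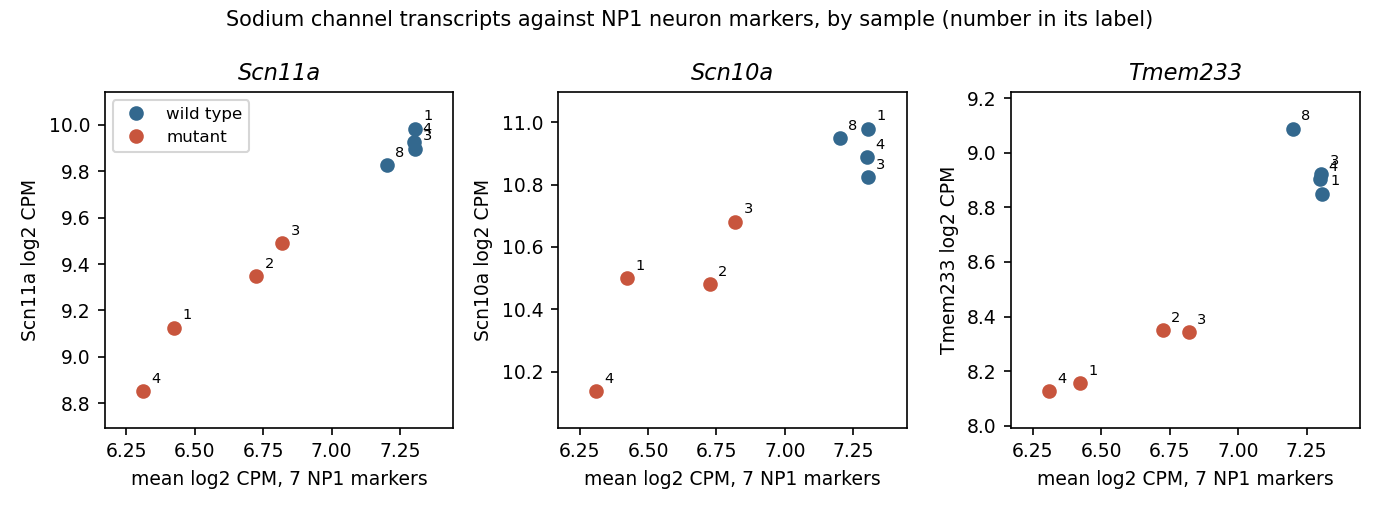
Log2 CPM of Scn11a, Scn10a and Tmem233 (y axes) against the mean log2 CPM of 7 NP1 markers (x axes) in 4 wild-type (blue) and 4 mutant (red) samples, numbered as in their labels. The mutants keep the same order on both axes for Scn11a, from mutant 4 at 8.85 to mutant 3 at 9.49, and the wild types sit together at the top right.

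Some of the 9 genes also varied together within genotypes. With each genotype's mean subtracted, Scn8a, Scn9a and Scn3b correlated with one another: r was 0.84 between Scn8a and Scn3b, 0.81 between Scn9a and Scn3b and 0.80 between Scn8a and Scn9a over 8 samples (Spearman 0.81, 0.83 and 0.88). Without the 2 samples in which the first-named gene of a pair lay farthest from its median, these were 0.59, 0.82 and 0.66. The same rule holds for the pairs below. Scn10a and Scn11a correlated at 0.88, but at 0.08 without the 2 farthest samples, mutants 3 and 4. Scn2b and Scn4b, neighbours on the chromosome, correlated at 0.63, or 0.44 without the 2 farthest samples. The neighbours Scn1a and Scn9a correlated at 0.29, or 0.57 without the 2 farthest. Apart from this last pair, those named had the largest r of all pairs of the 9 genes. Under the same measure the 5 genes nearest to Scn10a among 10119 genes were Amer2 (r = 0.98), Fbxl16 (0.98), Akap9 (0.97), Ank3 (0.97) and Ttc39c (0.96). Those nearest to Tmem233 were Ccdc68 (0.98), Scg3 (0.96), Ap3m1 (0.96), Ankhd1 (0.96) and Polr3b (0.96). Each of these is among the largest of 10119 values taken over 8 samples, and is given as a description.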

How the data were processed

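Total RNA from dorsal root ganglia was read as single-end Illumina libraries, per the labels' protocols, in 4 wild-type and 4 Tmem184b gene trap mice. A single table by the authors holds, for each gene, a moderated log2 CPM in each sample, and the deposited GC content in percent. The submitters' processing notes name Salmon 0.11.1, DESeq2 and the build mm9, without saying which step made the table. After the shared floor of -1.79 was subtracted on the linear scale, 100.0% of values were whole multiples (within 0.05 reads) of the worth of 1 read, which gave reads per gene and CPM. Of 41422 lines, 402 identifiers occurred more than once with equal values and were used once.

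Genes above 0 log2 CPM in at least 4 of 8 samples were fitted with limma 3.58.1 (R 4.3.3; eBayes with a mean-variance trend, no covariate, two-sided), with Benjamini-Hochberg adjustment and a threshold of 0.05. Fold changes are on the moderated log2 scale. On simulated data the fit called 86.0% of genes raised 2-fold and 85.7% of those at 0.5 of their level. It called 14.3% of genes raised 1.4-fold and 34.0% of those at 0.7 of their level. The simulation gave every gene the same dispersion, which was not fitted to these data, so these shares need not hold for them. A gene that did not pass may still differ. The members and lists were chosen with earlier results of these data known. Named are the 9 genes, Tmem184b, the other sodium channel subunits compared, further list members past the threshold and the 5 nearest genes of Scn10a and Tmem233. Prrt2 was also named, after its values were seen. Some members of the subunit and partner lists are not reported here, and counts and medians leave them out. Lengths and shared words come from GENCODE M21 (GRCm38), a build other than the mm9 named in those notes. Alternatives covered the filter, scale, variance model, voom, Xist, GC content, samples left out and a replicate block. Transcript length and the scale of correlations were added after the data were seen. Python 3.11.15, pandas 2.3.3, scipy 1.17.1 and matplotlib 3.10.9 were used. In these libraries 1 read was worth 0.125 to 0.162 CPM.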

Additional observations from a re-analysis of the deposited data

Results flagged for a closer look

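Of 64 sets of 4 samples examined, 3 contained a value set well apart from its companions, and chance gives about 1 in 20 (3.2 here). Wild type 4 was low in Scn4a, at 3.43 log2 CPM (71 reads), where its companions were between 3.96 and 4.03. Wild type 8 was high in Fgf13, at 8.91 log2 CPM against 8.71 to 8.74. Mutant 4 was high in the share of Scn4b among the 3 beta subunits, at 81.7% against 78.3% to 78.6%.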

How the results depend on the processing

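Over 20 alternatives the log2 difference lay between -0.55 and -0.36 for Scn10a, -0.80 and -0.59 for Scn11a, -0.79 and -0.65 for Tmem233, and 0.34 and 0.51 for Scn4b. After median centring Scn8a differed by 0.08 and Scn9a by -0.26, and with the GC trend removed Scn9a differed by -0.27. Of the 9 genes, 3 were called higher under quantile normalization, 2 with the Xist covariate, 2 in the replicate block and 0 without the mean-variance trend, and 5 were called lower with the GC trend removed and 1 without the mean-variance trend. With 1 sample left out, 1 to 2 were higher and 3 to 4 lower. Tmem233 was called in all 20 alternatives, Scn11a and Scn4b in 19 each and Scn10a in 18. Scn10a was not called without the mean-variance trend, nor in the 6 samples with shared numbers without the replicate block. Of all genes, 204 were higher and 706 lower after median centring, 271 higher under quantile normalization, 67 higher and 75 lower without the mean-variance trend, 251 higher with voom, and 257 higher and 604 lower with the GC trend removed. Leaving out 1 sample gave 174 to 572 higher and 230 to 427 lower, fewest without wild type 1, and the higher count also moved by over 1.5 times without wild type 3 (226), mutant 1 (183), mutant 2 (266) or mutant 4 (206).

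Partners called higher numbered 2 under quantile normalization and with a robust trend, and 0 with no filter, after median centring, without the mean-variance trend, with voom, with the GC trend removed, and in the 6 samples with shared numbers with and without the replicate block; partners called lower numbered 0 without the mean-variance trend and 1 in those 6 samples without the block. Without the mean-variance trend the kinases called lower numbered 1, and the dispanin relatives and transcription factors 0 each; the dispanin count was also 0 in the 6 samples with and without the block. With 1 sample left out, counts ranged over 0 to 1 partners higher and 1 to 3 lower, 1 to 3 kinases, 0 to 1 dispanin relatives and 1 to 2 transcription factors lower. The cause of these changes was not tested.

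The numbers 1, 3 and 4 occur in both genotypes. Same-numbered deviations correlated at 0.081, 0.041 and 0.058, and differently numbered ones at -0.200 to 0.105. Such small values cannot decide whether the numbers mark pairs. The replicate block on these numbers gave 326 higher and 345 lower genes over 6 samples, against 180 and 267 when it was dropped. With merged exons as length, wild-type CPM per kilobase was 22.5 for Scn1a, 34.7 for Scn8a, 64.1 for Scn9a, 242 for Scn10a and 22.0 for Scn3b. The r of Scn8a with Scn9a, Scn8a with Scn3b and Scn9a with Scn3b was 0.90, 0.91 and 0.90 after median centring and 0.59, 0.77 and 0.69 under quantile normalization, and with the GC trend removed r was 0.91 for the first and last of these.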
